A study of Mus musculus with 18 samples.

Results

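The mitochondrial genome of the mouse carries 37 genes, and all 37 are rows of the deposited table, out of 35405 genes. They were taken as the rows placed on the chromosome named MT, and comprise 13 mRNAs, 2 rRNAs and 22 tRNAs. RNA was sequenced in 18 libraries of mouse colon in 3 groups of 6, named IBC (isobavachalcone, a plant chalcone), TNBS (trinitrobenzene sulfonic acid, which induces colitis in mice as a hapten) and vector (the controls). Every group is whole colon tissue, selected for polyadenylated RNA on oligo(dT) beads. The labels give no strain, age, dose or time, leave unsaid whether the IBC mice also received TNBS and whether each library is an animal of its own, so that p-values measure the spread between these libraries. The series title concerns isobavachalcone as a treatment of TNBS colitis.

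Mitochondria keep a small circular genome that is read along both strands into long precursors. In the mammalian precursors most mRNAs and rRNAs are separated by tRNAs, and cutting out the tRNAs releases them. The mRNAs encode membrane subunits of complexes I, III, IV and V of oxidative phosphorylation, while all other subunits, the polymerase, the processing enzymes and the ribosomal proteins are made from nuclear genes. The colon epithelium draws much of its energy from oxidation of butyrate in mitochondria, and mitochondrial transcripts are a usual part of every colon RNA library. Oligo(dT) selection takes RNAs with a poly(A) tail, so the levels of the rRNA and tRNA genes below do not stand for the amounts of the mature RNAs.

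The tRNAs most prominent in the comparisons below lie in 2 compact clusters, and their sequences show how little separates neighbouring genes. All sequences are those of the GENCODE M21 transcripts on the build GRCm38, where start, end and strand of all 37 genes match the table, and the capitals mark the anticodon. The first cluster lies between mt-Nd4 and mt-Nd5, at M:11546-11612 for the histidine tRNA mt-Th, M:11613-11671 for the serine tRNA mt-Ts2 and M:11671-11741 for the leucine tRNA mt-Tl2, all on the plus strand. The 3 genes follow each other without a gap.
mt-Th: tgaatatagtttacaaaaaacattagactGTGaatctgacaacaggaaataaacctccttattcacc
mt-Ts2: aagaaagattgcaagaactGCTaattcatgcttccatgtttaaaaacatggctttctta
mt-Tl2: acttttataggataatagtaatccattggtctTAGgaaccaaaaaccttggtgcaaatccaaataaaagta
The second cluster lies between mt-Nd1 and mt-Nd2, at M:3706-3774 for the isoleucine tRNA mt-Ti on the plus strand, M:3772-3842 for the glutamine tRNA mt-Tq on the minus strand and M:3845-3913 for the methionine tRNA mt-Tm on the plus strand. Mt-Ti and mt-Tq overlap by 3 bases on opposite strands.
mt-Ti: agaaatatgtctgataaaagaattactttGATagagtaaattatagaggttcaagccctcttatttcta
mt-Tq: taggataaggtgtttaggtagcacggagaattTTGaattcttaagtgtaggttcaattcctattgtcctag
mt-Tm: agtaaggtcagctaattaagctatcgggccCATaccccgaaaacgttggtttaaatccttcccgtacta

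The total of a library was between 55.7 and 78.9 times 1e6 counts. The libraries differ in a way the groups do not explain. Hoxb13, a homeobox gene of the distal colon, was above 10 CPM (counts per 1e6 counts of the scaled totals) in 12 libraries and below it in 6, which are IBC 2 and 5, TNBS 2 and 3, and vector 3 and 4, so that each group holds 4 high and 2 low libraries. Epithelial markers were present in all groups, with Epcam averaging 1569 ± 284 CPM in IBC, 1612 ± 162 CPM in TNBS and 1365 ± 196 CPM in vector (SD, n = 6 each).

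Mitochondrially encoded RNA was a large part of every library, and its share varied more among the controls than between the group medians, which were 5.20% in IBC, 6.24% in TNBS and 6.16% in vector. The 37 genes held 5.31%, 7.51%, 4.48%, 5.20%, 5.19% and 4.8% of all counts in IBC 1 to 6. They held 4.94%, 6.79%, 6.26%, 6.21%, 9.20% and 5.80% in TNBS 1 to 6, and 6.24%, 5.79%, 17.98%, 7.08%, 5.55% and 6.08% in vector 1 to 6. Library vector 3 stands alone, at over 2 times the share of any other control, and TNBS 5 and IBC 2 were the highest of their groups. The means were 5.42 ± 1.07% in IBC, 6.53 ± 1.44% in TNBS and 8.12 ± 4.86% in vector (SD, n = 6 each). The difference of means was -1.59 percentage points for TNBS minus vector and 0.38 without vector 3. It was -1.12 percentage points for IBC minus TNBS and -0.58 without TNBS 5, and -2.70 for IBC minus vector and -0.73 without vector 3. The ranges of all 3 groups overlap, and a sum over chosen genes is given without a test. In whole tissue, fewer cells rich in mitochondria and less mitochondrial RNA per cell cannot be told apart.

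**Figure D1:**
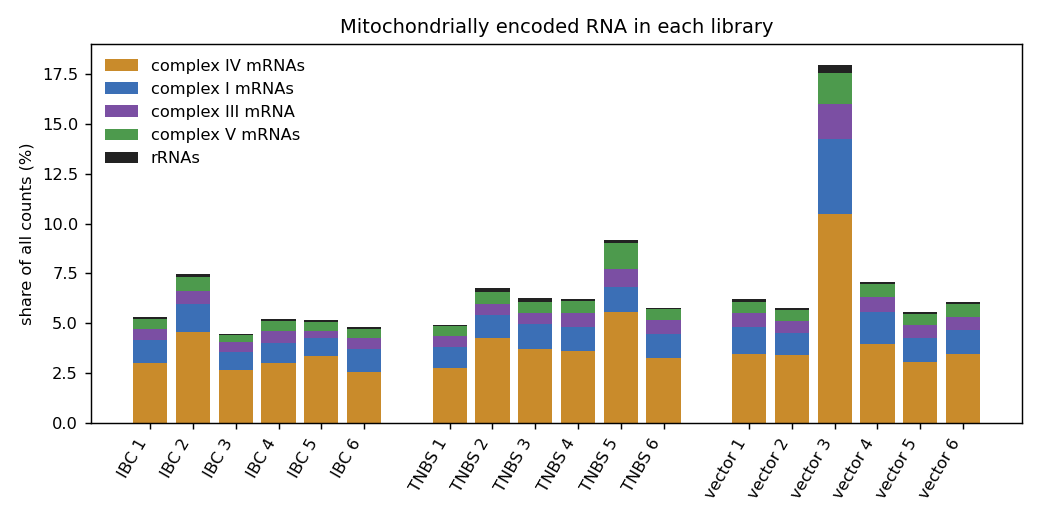
Stacked bars give the share of all counts (%) held by mitochondrially encoded mRNAs of complexes I, III, IV and V and by the 2 rRNAs in each of the 18 libraries. With the tRNAs, too few to draw, vector 3 reaches 17.98%, while the other 17 libraries lie between 4.48% and 9.20%.

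The genes differ widely in level. Levels between genes are compared per length, as FPKM (fragments per kilobase of gene and per 1e6 fragments), averaged over the 18 libraries with the SD over them. The mRNA of mt-Co1, the catalytic subunit of complex IV, led with 16715 ± 7974 FPKM. It was followed by mt-Co2, the subunit that takes electrons from cytochrome c, with 6974 ± 3050 FPKM, mt-Atp6, part of the proton channel of complex V, with 6866 ± 3140 FPKM, and mt-Co3, another core subunit of complex IV, with 6011 ± 2723 FPKM. Mt-Cytb, the only mitochondrially encoded subunit of complex III, had 5474 ± 2258 FPKM, and mt-Atp8, a small subunit of complex V, had 5365 ± 2982 FPKM. From mt-Co2 to mt-Atp8, neighbours in this order differ by far less than their spread.

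By these means the 7 complex I mRNAs stood below the 6 mRNAs of complexes III, IV and V, though not in every library: in IBC 5 mt-Nd1 had 3502 FPKM and mt-Cytb 2819 FPKM. Mt-Nd1, a core subunit next to the quinone site, led them with 4092 ± 1706 FPKM, followed by the membrane-arm subunits mt-Nd4 with 2427 ± 1138 FPKM and mt-Nd2 with 1744 ± 878 FPKM. The small subunit mt-Nd4l had 1200 ± 740 FPKM, mt-Nd6, a membrane subunit, had 1132 ± 712 FPKM and mt-Nd5, a proton-pumping subunit, had 1004 ± 656 FPKM. The means of these last 3 differ by less than the SD over libraries. Within libraries mt-Nd6 had 0.669 to 2.64 times the FPKM of mt-Nd5. Mt-Nd3, a small subunit next to the quinone channel, was lowest with 414 ± 227 FPKM. The rRNAs mt-Rnr1 (small ribosomal subunit) and mt-Rnr2 (large ribosomal subunit) lay near it with 512 ± 320 and 419 ± 283 FPKM, in libraries selected for poly(A). Among tRNA genes, mt-Ts1 stood at 991 ± 502 FPKM, mt-Te at 211 ± 150 FPKM and mt-Tp at 160 ± 82.1 FPKM, and the other 19 averaged between 0.328 and 83.4 FPKM.

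**Figure D2:**
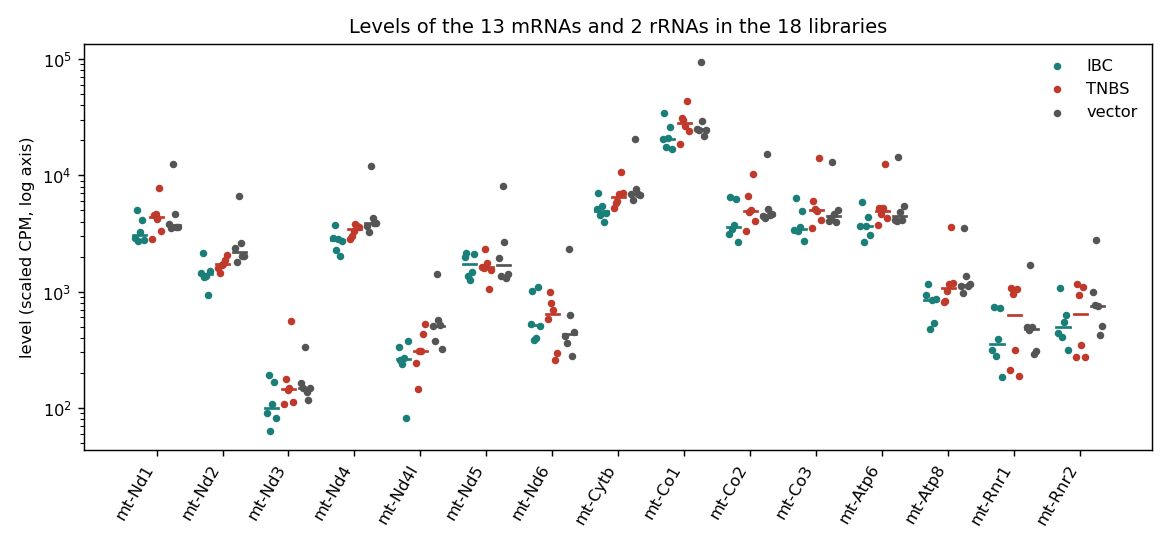
Each point is the level of a gene (scaled CPM, log axis) in 1 library, with the 6 libraries of IBC, TNBS and vector side by side and a line at each group's median. The highest control point of every gene is vector 3, at 93705 CPM for mt-Co1, and the groups overlap for every gene.

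Mt-Co1 and mt-Nd2 show the values behind the group comparisons. In CPM, mt-Co1 had a lowest, median and highest level of 16934, 20721 and 34128 in IBC, 18713, 28445 and 43791 in TNBS, and 21823, 24876 and 93705 in vector. The 3 groups overlap, and the control median lies below the TNBS median although the control mean is the highest of the 3, since vector 3 is over 3 times as high as any other control. Mt-Nd2 had 928, 1404 and 2142 CPM in IBC, 1437, 1720 and 2071 CPM in TNBS, and 1790, 2208 and 6644 CPM in vector. All 6 IBC and all 6 TNBS libraries lay below the control median of mt-Nd2, and the ranges still overlap.

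The other complex I mRNAs differed in the order of their medians. Mt-Nd4l had 81.0, 263 and 373 CPM in IBC, 146, 311 and 522 CPM in TNBS, and 318, 510 and 1412 CPM in vector, and 4 of 6 IBC libraries lay below the lowest control. Mt-Nd4 had 2033, 2779 and 3775 CPM in IBC, 2808, 3464 and 3813 CPM in TNBS, and 3287, 3873 and 11983 CPM in vector. Mt-Nd1 had 2747, 3067 and 5080 CPM in IBC, 2857, 4392 and 7818 CPM in TNBS, and 3554, 3735 and 12630 CPM in vector. For mt-Nd1 the TNBS median is the highest of the 3 medians. Mt-Nd5 medians were nearly level, with 1264, 1725 and 2130 CPM in IBC, 1042, 1613 and 2315 CPM in TNBS, and 1319, 1688 and 8171 CPM in vector. Mt-Nd3 had 62.9, 99.2 and 191 CPM in IBC, 107, 145 and 563 CPM in TNBS, and 117, 148 and 333 CPM in vector. The highest mt-Nd3 value of all libraries was that of TNBS 5.

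Mt-Nd6 is the only mRNA gene on the minus strand. Its control median was the lowest of the 3 medians, although its control mean was the highest of the means. It had 387, 514 and 1105 CPM in IBC, 256, 635 and 993 CPM in TNBS, and 278, 433 and 2320 CPM in vector. Without vector 3 the controls reached 635 CPM. The counting is not stated to use strand, and mt-Nd6 overlaps mt-Nd5 by 14 bases on the opposite strand and shares its stretch of the genome with antisense precursors, so reads of mt-Nd6 and of antisense RNA over it cannot be told apart.

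The mRNAs of complexes III, IV and V were lowest in IBC by their medians. Mt-Cytb had 4006, 4931 and 7111 CPM in IBC, 5235, 6474 and 10706 CPM in TNBS, and 6145, 6928 and 20402 CPM in vector. Mt-Co2 had 2664, 3608 and 6520 CPM in IBC, 3324, 4939 and 10328 CPM in TNBS, and 4317, 4605 and 15235 CPM in vector. Mt-Co3 had 2728, 3486 and 6368 CPM in IBC, 3526, 5038 and 14239 CPM in TNBS, and 3994, 4491 and 13084 CPM in vector. For mt-Co2 and mt-Co3 the TNBS median exceeds the control median, and for mt-Cytb it does not.

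Mt-Atp8 and mt-Atp6 are read from a single mRNA with overlapping frames. The overlap spans 43 bases at M:7927-7969 on the plus strand of GRCm38, and its first codon belongs to mt-Atp6 while its last 3 bases end mt-Atp8, both in capitals.
mt-Atp8/mt-Atp6 overlap: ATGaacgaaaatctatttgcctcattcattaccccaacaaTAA
Reads over this stretch can be counted for either gene. Mt-Atp6 had 2646, 3672 and 5908 CPM in IBC, 3760, 4976 and 12567 CPM in TNBS, and 4062, 4511 and 14521 CPM in vector. Mt-Atp8 had 472, 854 and 1164 CPM in IBC, 817, 1082 and 3564 CPM in TNBS, and 973, 1133 and 3531 CPM in vector. Although the pair shares an mRNA, the FPKM of mt-Atp8 relative to that of mt-Atp6 ran from 0.411 in IBC 5 to 0.947 in TNBS 5.

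The 2 rRNAs were high in 3 and low in 3 of the TNBS libraries. Mt-Rnr1 had 184, 355 and 737 CPM in IBC, 189, 632 and 1081 CPM in TNBS, and 292, 479 and 1680 CPM in vector. Mt-Rnr2 had 313, 493 and 1067 CPM in IBC, 273, 645 and 1162 CPM in TNBS, and 423, 755 and 2802 CPM in vector. Of the 6 TNBS libraries, 2, 3 and 5 had 948 to 1081 CPM of mt-Rnr1 and 1, 4 and 6 had 189 to 316 CPM. Relative to mt-Rnr1, mt-Rnr2 had 0.520 to 1.03 times its FPKM in IBC, 0.601 to 0.871 times in TNBS and 0.873 to 1.21 times in vector. The TNBS and vector ranges of this ratio meet without overlapping. It was the only one of 16 ratios between members with no overlap in that comparison, 0 of 16 had none in the comparisons of IBC with TNBS or with vector, and no test was made.

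The make-up of the mitochondrial RNA was steady for mt-Co1 and mt-Nd1 and varied for the other genes. Mt-Co1 held 42.4% of the mitochondrial counts on average, and its share differed by 1.17 times between the lowest and the highest of the 18 libraries. The share of mt-Nd1 differed by 1.22 times, and those of mt-Co2, mt-Atp6, mt-Cytb, mt-Co3, mt-Nd4 and mt-Nd2 by 1.70 to 2.44 times. Mt-Nd3, mt-Atp8 and the 2 rRNAs differed by 3.26 to 4.62 times. In contrast, the share of mt-Nd6 differed by 8.48 times, that of mt-Nd4l by 6.60 times and that of mt-Nd5 by 5.53 times. Single libraries account for the extremes. In TNBS 5, mt-Nd6 held 0.226% and mt-Nd5 0.921% of mitochondrial counts, each the lowest of all libraries, and mt-Atp8 (3.15%), mt-Nd3 (0.497%), mt-Co3 (12.6%) and mt-Atp6 (11.1%) were the highest. In IBC 5, mt-Nd4l (0.141%), mt-Nd2 (1.61%) and mt-Atp8 (0.938%) were the lowest and mt-Nd6 (1.92%) was the highest. Vector 3, the library with the largest amount, had a make-up near the median for most genes, with 44.9% for mt-Co1 and 1.11% for mt-Nd6, and the lowest share of mt-Co3, 6.26%.

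**Figure D3:**
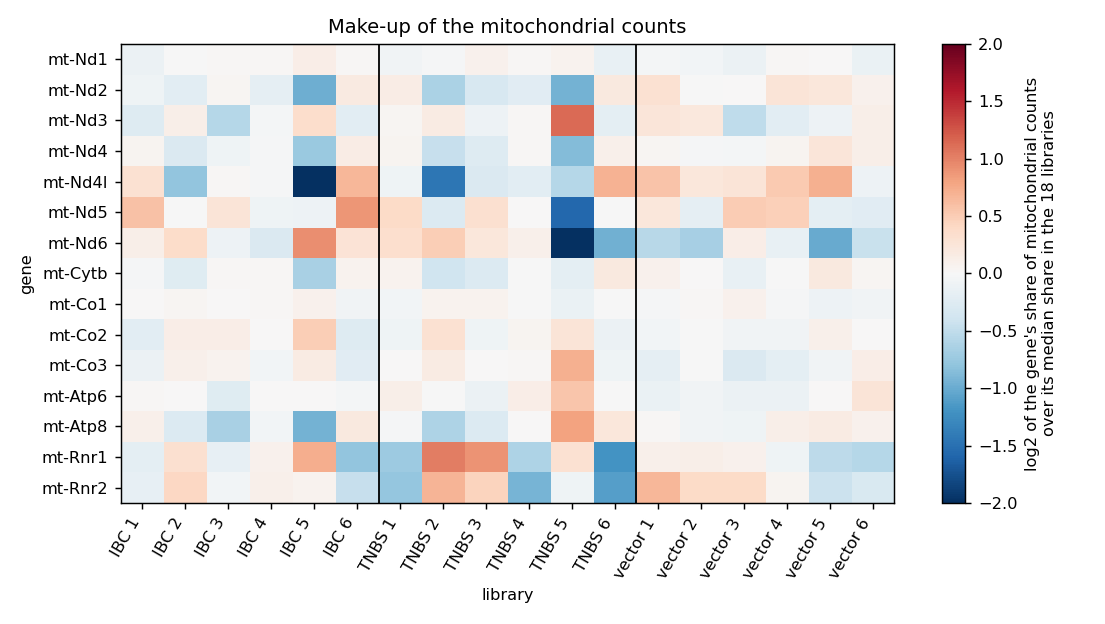
Colours give the log2 of each gene's share of the mitochondrial counts over its median share in the 18 libraries, with genes in rows and the IBC, TNBS and vector libraries in columns. TNBS 5 and IBC 5 depart most from the median, and mt-Co1 and mt-Nd1 are nearly white throughout.

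The FPKM of mt-Nd4l relative to that of mt-Nd4, its partner on 1 mRNA with an overlap of 7 bases at M:10167-10173, averaged 0.432 ± 0.161 in IBC, 0.443 ± 0.152 in TNBS and 0.554 ± 0.0958 in vector (SD, n = 6 each). The lowest ratios were 0.185 in IBC 5 and 0.224 in TNBS 2, both libraries low in Hoxb13, while the low controls vector 3 and vector 4 had 0.547 and 0.611. Mt-Nd6 relative to mt-Nd5 was highest in those same libraries, at 2.64 in IBC 5 and 2.19 in TNBS 2, against 0.740 to 1.11 in the controls. Mt-Atp8 relative to mt-Atp6 was lowest in the same libraries, at 0.411 in IBC 5 and 0.521 in TNBS 2. In each of these ratios the ranges of the groups overlap. Whether coverage along the genes was uneven in IBC 5 and TNBS 2 was not tested.

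Of the 22 tRNA genes, 17 passed the filter on low counts, and the other 5 averaged under 10 counts per library. Deposited counts are given here, since most are low, and a sequenced fragment may be worth more than 1 of these counts. Neighbouring tRNAs varied together across libraries. Mt-Th had 42, 135, 76, 108, 300 and 15 counts in IBC 1 to 6, 8, 584, 60, 21, 1 and 14 counts in TNBS 1 to 6, and 7, 4, 66, 41, 29 and 9 counts in vector 1 to 6. Its neighbours mt-Ts2 and mt-Tl2 had 456 and 535 counts in TNBS 2, 234 and 272 counts in IBC 5, and 0 and 1 count in TNBS 5. Over the 18 libraries the median of mt-Ts2 was 0.759 counts and that of mt-Tl2 0.896 counts for each count of mt-Th, with departures in libraries with few counts (mt-Ts2 between 0 and 1.00, mt-Tl2 between 0.732 and 1.33). Relative to all mitochondrial counts, mt-Th was highest in TNBS 2 and IBC 5, which are low in Hoxb13. The next highest was IBC 4, which is high in Hoxb13, above the low libraries IBC 2, TNBS 3, vector 3 and vector 4. The ranges of the groups overlap.

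The isoleucine, glutamine and methionine tRNAs in front of mt-Nd2 were most abundant in the controls. Mt-Tm had 100, 114, 75, 55, 23 and 148 counts in IBC 1 to 6, 58, 95, 88, 63, 63 and 174 counts in TNBS 1 to 6, and 158, 120, 691, 382, 163 and 80 counts in vector 1 to 6. Mt-Tq had between 22 and 85 counts in IBC, between 27 and 89 in TNBS and between 43 and 455 in vector. Mt-Ti had between 30 and 80 counts in IBC, between 16 and 120 in TNBS and between 31 and 382 in vector. Vector 3 and vector 4, the 2 controls low in Hoxb13, gave the highest control values of all 3 genes, and the groups overlap.

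**Figure D4:**
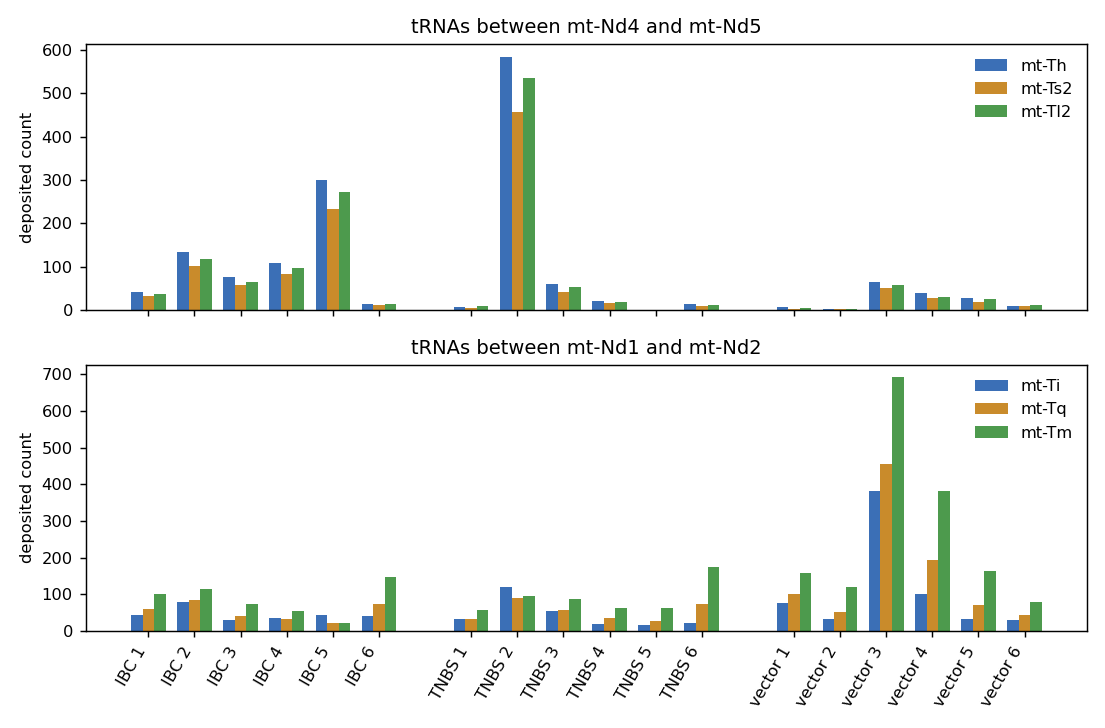
Bars give the deposited counts of mt-Th, mt-Ts2 and mt-Tl2 (upper panel) and of mt-Ti, mt-Tq and mt-Tm (lower panel) in each library of IBC, TNBS and vector. In the upper cluster all 3 genes are highest in TNBS 2, with 584 counts of mt-Th, and next in IBC 5, with 300, and the lower cluster peaks in vector 3, with 691 counts of mt-Tm.

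The alanine, asparagine, cysteine and tyrosine tRNAs mt-Ta, mt-Tn, mt-Tc and mt-Ty lie side by side on the minus strand between mt-Nd2 and mt-Co1. Mt-Tn had a median of 1.14 counts and mt-Tc of 0.811 counts for each count of mt-Ta, whereas mt-Ty had 110 counts beside 247 of mt-Ta in IBC 5 and 29 beside 16 in vector 5. Mt-Tn was highest in IBC 5 with 293 counts and in vector 3 with 260 counts, and lowest in vector 5 with 16. Of the 4 most abundant tRNA genes, mt-Ts1 averaged 5068 counts and overlaps the end of mt-Co1 by 3 bases on the opposite strand. Mt-Te, beside mt-Nd6, averaged 1094 counts. The proline tRNA mt-Tp, on the minus strand, averaged 793 counts and the leucine tRNA mt-Tl1, between mt-Rnr2 and mt-Nd1, averaged 467 counts. Without strand in the counting, reads of the minus-strand tRNA genes mt-Ts1, mt-Te, mt-Tp, mt-Tq, mt-Ta, mt-Tn, mt-Tc and mt-Ty cannot be told apart from those of the RNA on the other strand. The remaining tRNA genes named by abundance are mt-Tw with an average of 23.2 counts, mt-Tk with 14.3 and mt-Tr with 11.4.

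For 7 of the 13 mRNAs the table lists a near-identical copy in the nuclear genome. These copies lie close together on the minus strand of chromosome 1, within 1:24611535-24616197 of GRCm38, and they are annotated there as pseudogenes. Gm10222 matches mt-Nd4l over 294 bases, Gm28661 matches mt-Co2 over 681, Atp6-ps matches mt-Atp6 over 678, Gm28437 matches mt-Co3 over 783 and Gm28439 matches the first 876 bases of mt-Nd4, all without a differing base. Gm29216 matches the last part of mt-Co1 over 483 bases with 1 differing base, and Gm28438 matches mt-Nd3 over 345 bases with 1 differing base. The start of that pair is shown because it holds the difference, in capitals, at base 3 counted from the first base of mt-Nd3 (mt-Nd3 at M:9459-9491 on the plus strand, Gm28438 at 1:24613087-24613119 on the minus strand).
mt-Nd3: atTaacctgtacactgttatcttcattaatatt
Gm28438: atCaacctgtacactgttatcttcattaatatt
Reads from identical stretches cannot be assigned to either place, and the deposited counts of 5 of the 7 copies lay within 10% of those of the member in every library. Atp6-ps had 102% to 105% of the counts of mt-Atp6 over the 18 libraries, Gm28661 had 98.4% to 99.6% of those of mt-Co2, Gm28437 had 98.7% to 99.8% of those of mt-Co3 and Gm10222 had 98% to 102% of those of mt-Nd4l. Gm28438 had 101% to 109% of the counts of mt-Nd3, Gm28439 had 24.4% to 45.9% of those of mt-Nd4 and Gm29216 had 7.80% to 16.6% of those of mt-Co1. Gm28439, matching the start of mt-Nd4, had its lowest shares in IBC 5 (24.4%) and TNBS 2 (28.9%). Gm29216, matching the end of mt-Co1, had its highest shares there (16.6% and 13.4%). These libraries also had the lowest ratios of mt-Nd4l to mt-Nd4. Whether a read from such a stretch was counted in both places or divided between them is not given in the sources used here, so the levels of these 7 mRNAs relative to the others are uncertain. For mt-Nd1, mt-Nd2, mt-Nd5, mt-Nd6, mt-Cytb and mt-Atp8 no copy was compared, and the bases between the annotated copies were not searched.

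The comparison of TNBS with vector asks how mitochondrial RNA stands in the colitis model. No mitochondrially encoded gene was called, and the direction of the mRNAs rested on 1 control library. In edgeR's quasi-likelihood test with Benjamini-Hochberg adjustment over all genes, 0 of the 32 members that passed the filter had an adjusted p under 0.05, where 0.0192% of the 20855 tested genes did. At an unadjusted p under 0.05 there were 5 of 32, all lower in TNBS, where 7.32% of all tested genes were lower and 17.8% differed in either direction. They are mt-Nd2, mt-Nd4l and mt-Nd4 of complex I and the tRNAs mt-Tm and mt-Tq. Members come from shared precursors and move together in a library. Counts of members, here and in the comparisons below, are therefore not counts of separate events. DESeq2 called 0 members and 2.89% of the genes it gave an adjusted p. It had 10 members and 20.2% of all genes at an unadjusted p under 0.05. Limma called 0, with 3 members and 16.2% of all genes at that p. Of the 13 mRNAs, 11 had a log2 difference below 0, against 51.1% of all tested genes, with a median of -0.31 beside -0.01 for all genes tested. Without vector 3, 4 of 13 were below 0 and the median was 0.26. No member's groups were apart, where 0.743% of all tested genes lay wholly lower and 0.432% wholly higher in TNBS.

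Mt-Nd2 had a log2 difference of -0.75 ± 0.28 (SE; 6 of 6 TNBS libraries below the control median; edgeR adjusted p = 0.211) and mt-Nd4l of -0.91 ± 0.39 (5 of 6; adjusted p = 0.243). Among tRNAs, mt-Tm had -1.49 ± 0.49 (5 of 6; edgeR adjusted p = 0.182) and mt-Tq -1.49 ± 0.53 (5 of 6; adjusted p = 0.198). The log2 differences without vector 3 were -0.31, -0.47, -0.88 and -0.70 for mt-Nd2, mt-Nd4l, mt-Tm and mt-Tq. Mt-Co1 had -0.33 ± 0.35 (2 of 6 below the control median; edgeR adjusted p = 0.619), and 0.23 without vector 3. Mt-Nd6 had -0.31 ± 0.49 (edgeR adjusted p = 0.752), and 0.50 without vector 3. The rRNAs had 0.02 ± 0.52 for mt-Rnr1 (edgeR adjusted p = 0.985) and -0.60 ± 0.48 for mt-Rnr2 (adjusted p = 0.505), and 0.63 and 0.01 without vector 3. The other mRNAs lay between -0.77 for mt-Nd5 and 0.26 for mt-Nd3. The other tRNAs lay between -1.27 for mt-Ti and 2.27 for mt-Ts2, whose neighbours mt-Th and mt-Tl2 had 2.20 and 2.26. For mt-Th, mt-Ts2 and mt-Tl2, 3 of 6 TNBS libraries lay above the control median (edgeR adjusted p = 0.297, 0.301 and 0.283). Without vector 3 and TNBS 5, a choice made after seeing the data, they had 3.02, 3.17 and 3.11 (edgeR adjusted p = 0.392, 0.386 and 0.383).

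The comparison of IBC with TNBS asks how the compound group stands against the colitis group. No member was called, and the mRNAs with a log2 difference below 0 were the majority. In edgeR's quasi-likelihood test with Benjamini-Hochberg adjustment, 0 of 32 members had an adjusted p under 0.05, as did 0% of all tested genes. At an unadjusted p under 0.05 there was 1 of 32, mt-Atp8, lower in IBC, where 2.22% of all tested genes were lower, 1.71% higher and 3.93% differed in either direction. DESeq2 called 0 members, with 2 members and 5.09% of all genes at an unadjusted p under 0.05, and limma called 0, with 0 members and 4.15% of all genes. Of the 13 mRNAs, 11 had a log2 difference below 0, against 49.7% of all tested genes, with a median of -0.39 beside 0.00 for all genes tested. Without TNBS 5, 13 of 13 were below 0 and the median was -0.23. No member's groups were apart, where 0.0959% of all tested genes lay wholly lower and 0.0527% wholly higher in IBC.

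Mt-Atp8 had a log2 difference of -0.83 ± 0.39 (SE; 5 of 6 IBC libraries below the TNBS median; edgeR adjusted p = 0.925) and mt-Nd3 of -0.84 ± 0.40 (4 of 6; adjusted p = 0.925). Without TNBS 5, where both were far above the rest of the group, they had -0.31 and -0.23. Mt-Co1 had -0.36 ± 0.35 (5 of 6; edgeR adjusted p = 0.925) and -0.20 without TNBS 5. Mt-Nd6 had 0.12 ± 0.49 (edgeR adjusted p = 0.986), mt-Rnr1 had -0.53 ± 0.52 (adjusted p = 0.925) and mt-Rnr2 had -0.27 ± 0.48 (adjusted p = 0.965). Among tRNAs, mt-Tk had -0.55 ± 0.39 and mt-Tp -0.42 ± 0.37 (edgeR adjusted p = 0.925 for both). The other mRNAs lay between -0.64 for mt-Co3 and 0.06 for mt-Nd5, and the other tRNAs between -0.40 for mt-Tr and 0.15 for mt-Te.

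The comparison of IBC with vector, which shares its libraries with both others, had the median furthest from 0 over the mRNAs. No member was called by edgeR's quasi-likelihood test with Benjamini-Hochberg adjustment, as was 0% of all tested genes. At an unadjusted p under 0.05 there were 8 of 32, all lower in IBC, where 3.63% of all tested genes were lower, 4.9% higher and 8.53% differed in either direction. They are mt-Nd2, mt-Nd4l, mt-Nd4, mt-Cytb and mt-Atp8, and the tRNAs mt-Tm, mt-Tq and mt-Ti. As above, these 8 are not separate events, and neither are the directions of the mRNAs. DESeq2 called 2 members lower, mt-Tm with a log2 difference of -1.71 (DESeq2 adjusted p = 0.0436) and mt-Nd2 with -0.997 (DESeq2 adjusted p = 0.0452), where it called 0.93% of the genes it gave an adjusted p. At an unadjusted p under 0.05, DESeq2 had 14 members and 9.85% of all genes. Limma called 0, with 8 members and 9.77% of all genes at that p. All 13 mRNAs had a log2 difference below 0, against 50.9% of all tested genes, with a median of -0.69 beside -0.01 for all genes tested. Without vector 3, 12 of 13 were below 0 and the median was -0.21. No member's groups were apart, where 0.633% of all tested genes lay wholly lower and 0.446% wholly higher in IBC.

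Mt-Nd2 had a log2 difference of -1.01 ± 0.29 (SE; 6 of 6 IBC libraries below the control median; edgeR adjusted p = 0.284) and mt-Nd4l of -1.25 ± 0.39 (6 of 6; adjusted p = 0.326). Mt-Tm had -1.72 ± 0.50 (6 of 6; edgeR adjusted p = 0.303) and mt-Tq -1.62 ± 0.53 (5 of 6; adjusted p = 0.368). Without vector 3 these 4 genes had -0.57, -0.80, -1.09 and -0.82. Mt-Co1 had -0.69 ± 0.35 (4 of 6; edgeR adjusted p = 0.637) and -0.13 without vector 3. Mt-Nd6 had -0.18 ± 0.49 (edgeR adjusted p = 0.959) and 0.63 without vector 3. Mt-Rnr1 had -0.51 ± 0.52 (edgeR adjusted p = 0.860) and mt-Rnr2 -0.87 ± 0.49 (adjusted p = 0.679), and 0.10 and -0.27 without vector 3. The other tRNAs lay between -1.35 for mt-Tr and 2.11 for mt-Ts2, whose neighbours mt-Th and mt-Tl2 had 2.05 and 2.08. For mt-Th, mt-Ts2 and mt-Tl2, 5 of 6 IBC libraries lay above the control median (edgeR adjusted p = 0.657, 0.659 and 0.647).

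**Figure D5:**
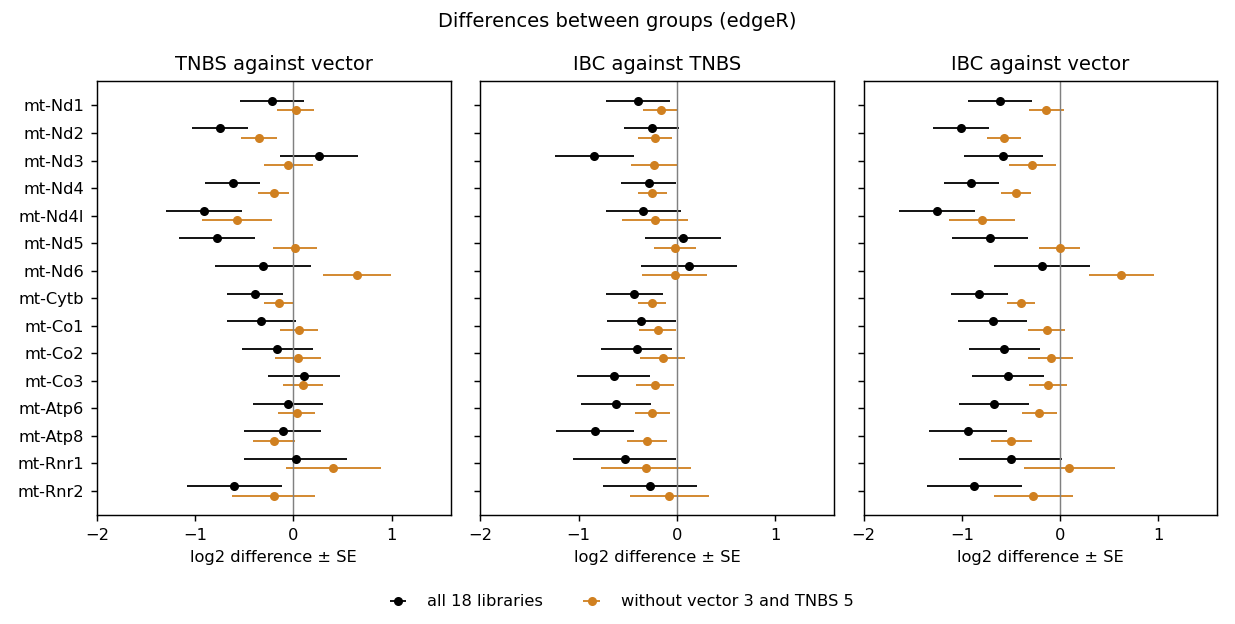
Points give the log2 difference ± SE (edgeR) of the 13 mRNAs and 2 rRNAs in a panel for each comparison (TNBS over vector, IBC over TNBS, IBC over vector), in black from all 18 libraries and in orange without vector 3 and TNBS 5. Without those libraries the median over the 13 mRNAs was 0.01, -0.22 and -0.21 in the 3 panels, and mt-Nd4l and mt-Nd2 were the lowest mRNAs where vector is the comparison.

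Leaving out both vector 3 and TNBS 5 was chosen after seeing the data. The mRNAs below 0 then numbered 6 of 13 for TNBS against vector, 13 of 13 for IBC against TNBS and 12 of 13 for IBC against vector, and 0 members were called in each. Mt-Nd2 then had a log2 difference of -0.35 for TNBS against vector and -0.57 for IBC against vector, and mt-Nd4l had -0.57 and -0.80. The direction also differed with Hoxb13. In the 12 libraries high in Hoxb13 the median over the 13 mRNAs was 0.28 for TNBS against vector, and in the 6 low libraries, which include vector 3, it was -1.0. A term for this difference in 1 edgeR fit, chosen after seeing the data, called 0 of 32 members, with 12 of 32 at an unadjusted p under 0.05, where 4.56% of all tested genes were. For IBC against TNBS the medians were -0.57 in the high and -0.03 in the low libraries, with 2 of 32 members at an unadjusted p under 0.05 for the difference, where 4.48% of all tested genes were. For IBC against vector they were -0.42 and -1.03, with 7 of 32, where 12% of all tested genes were, and 0 members were called.

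Nuclear genes of the same complexes gave no calls either. The lists hold 44 nuclear-encoded subunits of complexes I, III, IV and V, and 0 were called in any of the 3 comparisons by edgeR's quasi-likelihood test with Benjamini-Hochberg adjustment. At an unadjusted p under 0.05 there was 1 of 44 in TNBS against vector, higher in TNBS, where 10.4% of all tested genes were higher. There were 0 in IBC against TNBS and IBC against vector, where 3.93% and 8.53% of all tested genes differed. Of the 44, 43 had a log2 difference above 0 for TNBS against vector (median 0.32), 42 had one below 0 for IBC against TNBS (median -0.26) and 35 had one above 0 for IBC against vector (median 0.08). Of all tested genes, 51.1%, 49.7% and 50.9% had one below 0 in these comparisons. Without vector 3 and TNBS 5 the counts were 36 of 44 above 0 (median 0.14), 28 below 0 (median -0.01) and 37 above 0 (median 0.12). The medians over all genes tested were then -0.01, 0.02 and 0.02. The summed level of the 44 was 9786 to 21255 CPM in IBC, 10899 to 24798 CPM in TNBS and 12638 to 14283 CPM in vector. Vector 3, with 13627 CPM, sits within the other controls in this sum, with the highest control level for complex IV (3737 CPM, where the others had 2435 to 2969 CPM) and the lowest for complex V (5508 CPM, where they had 6127 to 6751 CPM), whereas TNBS 5 and IBC 5 were the highest of their groups. The 4 subunits of complex II, which has no mitochondrially encoded part, had medians of 0.22, -0.20 and 0.08 in the 3 comparisons.

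Genes that copy, transcribe and process mitochondrial nucleic acids gave 0 calls in each list and comparison by edgeR's quasi-likelihood test with Benjamini-Hochberg adjustment. Of 17 genes of mitochondrial transcription and DNA maintenance, 2 were higher in TNBS than in vector at an unadjusted p under 0.05, where 10.4% of all tested genes were, a share near theirs. They are Tefm, a mitochondrial transcription elongation factor, with a log2 difference of 0.61 ± 0.22 (SE; edgeR adjusted p = 0.198), and Top1mt, the mitochondrial topoisomerase, with 0.50 ± 0.19 (adjusted p = 0.206). In IBC against TNBS, where 2.22% of all tested genes were lower, 2 of the 17 were, the mTERF family genes Mterf4 with -0.42 ± 0.18 and Mterf3 with -0.27 ± 0.12 (edgeR adjusted p = 0.925 for both). In IBC against vector, where 4.9% of all tested genes were higher, 1 of the 17 was, Top1mt with 0.39 ± 0.19 (edgeR adjusted p = 0.580). Without vector 3 and TNBS 5, 0 of the 17 were at an unadjusted p under 0.05 in any comparison. Of 20 genes of mitochondrial RNA processing and stability, 3 were lower in IBC than in TNBS at an unadjusted p under 0.05. In that comparison 2.22% of all tested genes were lower at that p. The 3 were led by the tRNA methyltransferase Trmt5 with -0.41 ± 0.14 and the exonuclease Pde12 with -0.38 ± 0.16 (edgeR adjusted p = 0.925 for both). In the other comparisons 0 of the 20 were at that p. TNBS against vector had 17.8% of all tested genes at that p, and IBC against vector had 8.53%. Without vector 3 and TNBS 5, 2 of 20 were lower in IBC against TNBS, where 3.49% of all tested genes differed in either direction. In that setting 1 of 20 was higher in TNBS against vector and 1 of 20 lower in IBC against vector. Of all tested genes, 10.8% and 11.2% differed there in either direction. Of 10 transcriptional regulators of mitochondrial content, 1 was lower in TNBS than in vector, where 7.32% of all tested genes were, Ppargc1a, a coactivator of mitochondrial biogenesis, with -0.92 ± 0.36 (edgeR adjusted p = 0.220).

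Markers of other cell types differed in the libraries that stand apart, and their part in the mitochondrial values was not tested. Vector 3 had the highest sum of 10 smooth muscle markers, 9820 CPM, where the other controls had 3404 to 6732 CPM, and the lowest sum of 5 epithelial markers among the controls, 7020 CPM. It also had the highest control sums of colonocyte markers, 14179 CPM where the other controls had 4158 to 7278 CPM, and of adipocyte markers, 692 CPM where they had 53.5 to 361 CPM. Over the groups the smooth muscle sum was 2782 to 5785 CPM in IBC, 2195 to 5133 CPM in TNBS and 3404 to 9820 CPM in vector. All 10 smooth muscle markers had a log2 difference below 0 in TNBS against vector (median -0.68; 5 of 10 at an unadjusted p under 0.05; edgeR called 0 of 10) and in IBC against vector (median -0.59; 5 of 10; 0 called), where 7.32% and 3.63% of all tested genes were lower at that p. Without vector 3 and TNBS 5, the TNBS against vector median was -0.56 and all 10 were below 0, with 5 of 10 at that p. The IBC against vector median was then -0.32, with 2 of 10 at that p and 1 of 10 above 0. In that setting 10.8% and 11.2% of all tested genes were at that p in either direction. The neutrophil sum was 29.1 to 254 CPM in IBC, 97.1 to 963 CPM in TNBS and 5.76 to 159 CPM in vector. TNBS 5 had its maximum, 963 CPM, and the highest macrophage sum, 1711 CPM. Skeletal muscle markers, another source of mitochondria-rich RNA, summed to at most 37.4 CPM in IBC, 26.4 CPM in TNBS and 61.3 CPM in vector, the last in vector 3. The sum holds 4 of the 6 listed markers. Of these, Ckm reached 34.3 CPM in IBC, 23.9 CPM in TNBS and 55.55 CPM in vector. Acta1, their main actin, stayed at or under 4.52 CPM in every library.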

How the data were processed

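Polyadenylated RNA of mouse colon was sequenced. Reads were trimmed with cutadapt 1.9, per the submitters' processing notes. The aligner, counting program, annotation and strand setting were not stated, and neither was the build, in the sources used here. The authors deposited a count and an FPKM value for every gene and library, per the file headers. Of 262 member values of 1 to 100 counts, 252 lay between 0.2 below and 1.2 above a fixed multiple of the FPKM value (median excess 0.384). Counts of 4 were more frequent (19961) than counts of 3 (9977) or 5 (6358), so a fragment may be worth more than 1 count, and no limits are given for counts of 0.

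Low genes were removed with filterByExpr of edgeR 4.0.16 (20855 genes left) and totals scaled by TMM. The quasi-likelihood test was fitted to all 18 libraries with a mean per group, two-sided, adjusted by Benjamini-Hochberg over all tested genes (threshold 0.05). Limma 3.58.1 on log2(FPKM + 1), DESeq2 1.42.0 and other settings were alternatives, in R 4.3.3. The genes and lists were chosen with earlier results of these data known. Fold changes are named for mt-Nd6, mt-Rnr1, mt-Rnr2 and mt-Co1, and per comparison for the 2 mRNAs and 2 tRNAs with the smallest p, others by range, and the 2 genes with the smallest p of a nuclear list. Those of mt-Th, mt-Ts2 and mt-Tl2 against vector were added for their size. Copies were aligned with Biopython 1.88. No library was a duplicate. Library totals were 55.7 to 78.9 in units of 1e6 counts. They may overstate the counting precision of each value, since a fragment may be worth more than 1 count. Same-numbered libraries were treated as unpaired. A gene among the nuclear-encoded subunits of the complexes is not reported here.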

Additional observations from a re-analysis of the deposited data

Results flagged for a closer look

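In 48 groups of 6 values (the mitochondrial share, 13 mRNAs and 2 rRNAs in each group), 23 had a highest library whose gap to the next was above Dixon's critical value (the 95% level) for the range. Chance alone gives about 1 in 20, and the genes of a library move together, so these are not 23 separate events.

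IBC 2 had a mitochondrial share of 7.51%, against 4.48% to 5.31% in the other IBC libraries. TNBS 5 stood out for 6 genes, with 7818 CPM of mt-Nd1, 563 CPM of mt-Nd3, 10706 CPM of mt-Cytb, 14239 CPM of mt-Co3, 12567 CPM of mt-Atp6 and 3564 CPM of mt-Atp8.

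Vector 3 stood out 16 times. Its share was 17.98%, against 5.55% to 7.08% in the other controls. Its complex I mRNAs had 12630 CPM (mt-Nd1), 6644 CPM (mt-Nd2), 333 CPM (mt-Nd3), 11983 CPM (mt-Nd4), 1412 CPM (mt-Nd4l), 8171 CPM (mt-Nd5) and 2320 CPM (mt-Nd6). Mt-Cytb had 20402 CPM. Complex IV mRNAs had 93705 CPM (mt-Co1), 15235 CPM (mt-Co2) and 13084 CPM (mt-Co3), and complex V mRNAs had 14521 CPM (mt-Atp6) and 3531 CPM (mt-Atp8). The rRNAs had 1680 CPM (mt-Rnr1) and 2802 CPM (mt-Rnr2).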

How the results depend on the processing

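Under 14 other settings, the number of members called stayed at 0 in each comparison, except for 2 under DESeq2 in IBC against vector. Leaving out each library in turn gave 0 calls in all 3 comparisons. The difference in mitochondrial share ranged over these omissions from -2.12 to 0.38 for TNBS minus vector, from -1.54 to -0.58 for IBC minus TNBS and from -3.22 to -0.73 for IBC minus vector, and in the 12 libraries high and the 6 low in Hoxb13 the first was 0.62 and -6.0 and the last -0.97 and -6.18. Some log2 differences changed sign. For TNBS against vector, mt-Nd6 had 0.28 and mt-Co1 0.25 in the 12 high libraries, and 0.65 and 0.059 without vector 3 and TNBS 5 (chosen after seeing the data). Mt-Rnr1 had -0.082 with limma at both pseudocounts, -0.17 with the replicate block and -0.10 in the low libraries. For IBC against TNBS, mt-Nd6 had -0.023 without vector 3 and TNBS 5, mt-Rnr2 had 0.0032 and 0.0037 with limma, and mt-Nd3 had 0.15 in the low libraries. For IBC against vector, mt-Nd6 had 0.21 with limma, 0.17 with the replicate block, 0.31 in the high libraries and 0.62 without vector 3 and TNBS 5, and mt-Rnr1 had 0.093 without them. The cause was not tested. Over all tested genes, edgeR called 4, 0 and 0 in the 3 comparisons (TNBS against vector first), DESeq2 called 578, 2 and 186, and a covariate for Hoxb13 gave 142, 0 and 4. In the 12 high libraries edgeR called 30 genes in IBC against vector, and without TNBS 6 it called 323 in TNBS against vector.

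Leaving out single libraries gave ranges of -0.51 to 0.50 (mt-Nd6), -0.20 to 0.63 (mt-Rnr1), -0.82 to 0.011 (mt-Rnr2) and -0.47 to 0.23 (mt-Co1) for TNBS against vector. They gave -0.089 to 0.33 for mt-Nd6 in IBC against TNBS, and -0.39 to 0.63 (mt-Nd6) and -0.72 to 0.10 (mt-Rnr1) in IBC against vector. The labels state no pairing by replicate number. Of 18 same-numbered pairs, 7 correlated above 0.1 (median -0.00744), a count that cannot decide whether libraries were paired. With the replicate block 0 members were called. The low tRNA counts limit their comparisons.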
